A study of Mus musculus with 6 samples.

Results

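Glucocorticoid and thyroid hormone response genes were followed in the small intestine of mouse pups as a set of 10 genes, all found by symbol among the 24452 symbols measured. The set holds the glucocorticoid receptor Nr3c1, the thyroid hormone receptors Thra and Thrb, the corticosterone-converting enzymes Hsd11b1 and Hsd11b2, and 5 genes known as direct hormone targets, Tsc22d3, Fkbp5, Sgk1, Zbtb16 and Klf9. RNA-seq had been done on 3 libraries labelled Erk1/2 knockout and 3 labelled wild type, all from C57BL/6 mice at postnatal day 14. The knockout label is a homozygous loss at Erk1/2, where Mapk3 is the gene of the kinase ERK1. The cells in which the genes were deleted, the driver of the deletion and any pooling of animals were not given in the sources used here. Separate animals are not named in the labels, so p-values cover only the spread among the 6 libraries, which may be technical.

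In suckling rodents the adrenal cortex and the thyroid become active before weaning, and both hormones are known to time the change of the gut epithelium from digesting milk to digesting solid food. Corticosterone, the main glucocorticoid of mice, enters cells and binds the receptor Nr3c1, a transcription factor held by chaperones in the cytoplasm until hormone arrives. How much hormone reaches the receptor also depends on enzymes inside the cell, since Hsd11b1 regenerates corticosterone from its inactive keto form and Hsd11b2 makes the reverse conversion. Thyroid hormone binds Thra and Thrb, which sit on DNA with a retinoid X receptor, and in the intestine Thra is known as the main form.

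Values are the authors' normalised counts, reads per gene scaled by 1 factor for each library and given as whole numbers. They summed to between 14825845 and 17153570 in the libraries labelled Erk1/2 KO, and to between 13641468 and 14094100 in wild type libraries. Estimated depth before scaling was 12546568 to 16301996 reads. Mapk3 was not lower under the knockout label. It had normalised counts of 3363, 2280 and 2734 in labelled Erk1/2 KO 1 to 3, against 3142, 2788 and 2004 in wild type 1 to 3. This total over the whole gene holds no values for single exons and does not bear out the genotype labels, so every direction below is that of the libraries labelled Erk1/2 KO relative to those labelled wild type. Labelled Erk1/2 KO 1 and wild type 3 stood apart from the other libraries in many genes that differ along the gut. Onecut2, a transcription factor of the proximal small intestine, was at 75 and 200 in them and between 1835 and 2560 in the other 4. It was picked from 7 proximal markers. Gata4, Cybrd1, Slc40a1 and Adh6a were also lowest in these 2 libraries, and Lct and Fabp1 were not. Fabp1 was at 65603 in labelled Erk1/2 KO 1 and at 24224 in wild type 3. Of the ileal markers, Fgf15 was at 390 and 1975 in them and at 13 or below in the other 4. Fabp6 was at 1947 in labelled Erk1/2 KO 1 and at 4 in wild type 3. Sex differed between libraries as well. Xist was between 4596 and 6551, with Ddx3y at 0, in labelled Erk1/2 KO 2 and 3 and in wild type 3, and Xist was at 19 or below, with Ddx3y between 177 and 428, in the other 3.

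Start regions from RefSeq (GRCm38.p6), each 250 bases before to 50 bases after a transcription start, were at hand for 6 of the 10 genes, with 14 windows in all. They were Hsd11b1, Tsc22d3, Fkbp5, Klf9, Sgk1 and Thrb, and not Nr3c1, Thra, Hsd11b2 and Zbtb16. Each was searched on both strands for AGAACA, the core of a glucocorticoid element, the full palindromic element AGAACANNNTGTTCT, AGGTCA, the core bound by thyroid hormone receptors among others, and its repeat with a spacer, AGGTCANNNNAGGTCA. The short cores lie inside the longer motifs and are counted again there. AGAACA was present in 19% of the 32851 windows of all genes, and AGGTCA in 16.3%. The full element was present in 3 windows, or 0.00913%, and the spaced repeat in 0.0152%. Sgk1 was 1 of the 3 genes with the full element in a window, beside Acnat2 and Gm35041. The windows chosen for printing are that of Sgk1, the window of Tsc22d3 with a match, and those of Hsd11b1, Fkbp5 and Klf9, which held none of these motifs. Capitals mark the matches on either strand.
Sgk1, chr10:21993640-21993939, plus strand: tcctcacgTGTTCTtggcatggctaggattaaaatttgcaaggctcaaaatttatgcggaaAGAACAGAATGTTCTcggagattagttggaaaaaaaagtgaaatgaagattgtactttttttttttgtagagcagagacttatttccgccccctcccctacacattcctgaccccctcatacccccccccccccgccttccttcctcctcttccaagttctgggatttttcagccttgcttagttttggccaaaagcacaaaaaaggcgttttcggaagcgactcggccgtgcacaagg
Tsc22d3, chrX:140600473-140600772, minus strand: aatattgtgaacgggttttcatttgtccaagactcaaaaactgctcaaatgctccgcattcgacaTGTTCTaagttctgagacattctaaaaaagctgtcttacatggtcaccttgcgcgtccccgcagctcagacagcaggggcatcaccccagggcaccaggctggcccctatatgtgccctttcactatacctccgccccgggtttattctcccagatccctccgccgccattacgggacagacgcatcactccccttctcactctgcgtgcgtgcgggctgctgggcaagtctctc
Hsd11b1, chr1:193242311-193242610, minus strand: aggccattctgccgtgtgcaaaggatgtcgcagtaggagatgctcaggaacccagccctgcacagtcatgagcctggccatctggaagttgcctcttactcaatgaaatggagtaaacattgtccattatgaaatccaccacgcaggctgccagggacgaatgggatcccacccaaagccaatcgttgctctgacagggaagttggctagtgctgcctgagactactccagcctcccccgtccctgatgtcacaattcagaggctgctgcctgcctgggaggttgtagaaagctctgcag
Fkbp5, chr17:28486100-28486399, minus strand: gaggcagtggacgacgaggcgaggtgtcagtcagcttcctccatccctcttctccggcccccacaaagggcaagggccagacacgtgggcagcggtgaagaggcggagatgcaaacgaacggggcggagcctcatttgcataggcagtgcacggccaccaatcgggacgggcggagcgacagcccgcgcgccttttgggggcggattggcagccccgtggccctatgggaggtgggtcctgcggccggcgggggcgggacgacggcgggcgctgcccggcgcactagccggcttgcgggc
Klf9, chr19:23140976-23141275, plus strand: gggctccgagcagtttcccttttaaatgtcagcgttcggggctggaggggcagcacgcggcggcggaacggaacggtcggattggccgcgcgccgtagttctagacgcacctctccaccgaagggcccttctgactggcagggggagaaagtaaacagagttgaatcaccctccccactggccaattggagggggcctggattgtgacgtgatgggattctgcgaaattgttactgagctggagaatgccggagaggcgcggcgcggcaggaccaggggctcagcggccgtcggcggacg
In Sgk1 the full element, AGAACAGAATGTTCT, ran from position -189 to -175 before the start, and a further core lay at -242 to -237. In Tsc22d3 a single core lay at -185 to -180 on the opposite strand, in 1 of its 3 windows. A window of Thrb held the glucocorticoid core at -23 to -18 and at -7 to -2. Further windows of Sgk1 held that core at -195 to -190 and at -13 to -8. AGGTCA was found in a pair of other Sgk1 windows, at -63 to -58 and at -101 to -96, and in another Thrb window at -184 to -179. The search covers only these letters in these windows, and elements of hormone target genes are often much farther away.

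Both enzymes that convert corticosterone rose. All 10 genes passed the filter on low values, and 3 had a limma adjusted p under 0.05: Hsd11b1 and Hsd11b2 were higher (2 of 10) and Tsc22d3 lower (1 of 10). Over all 14686 genes tested, 8.79% were called, 4.85% higher and 3.94% lower. These shares are also the background for every count of called genes in the marker and pathway lists below. The 2 genotypes did not overlap for 4 of the 10 genes, the 3 called and Thra, as for 37.6% of all genes tested, 19.8% higher and 17.8% lower. The median log2 fold change of the set was -0.29, beside -0.01 over all genes tested. Single genes ran in opposite directions, from 3.01 for Hsd11b1 to -1.97 for Zbtb16.

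**Figure D1:**
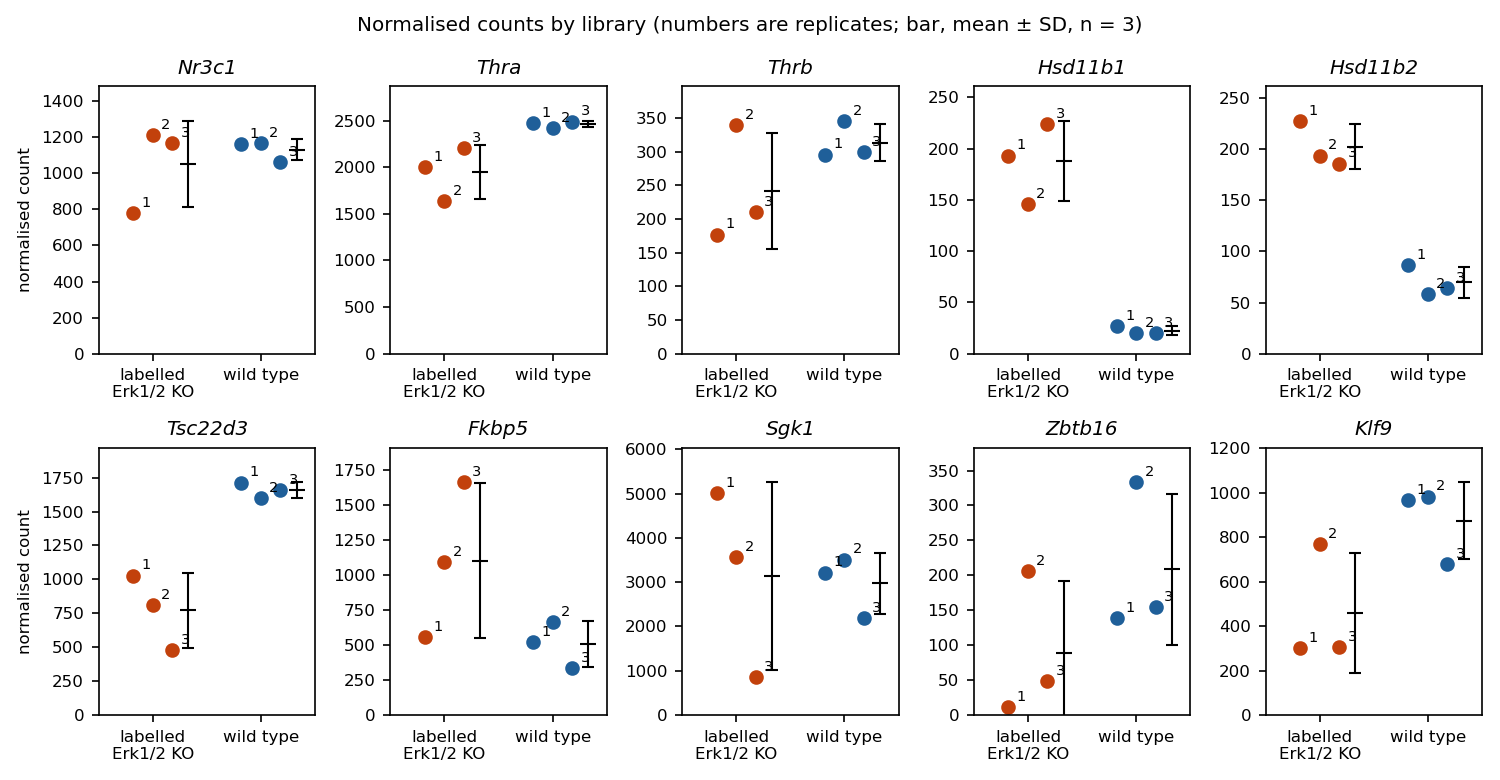
Normalised counts of the 10 genes (vertical axes, linear from 0) in the 3 libraries labelled Erk1/2 KO and the 3 wild type libraries, with replicate numbers beside the points and bars for mean ± SD (cut at 0 for Zbtb16). Hsd11b1, Hsd11b2, Tsc22d3 and Thra keep the genotypes apart, while the labelled KO libraries of Sgk1 run from 849 to 5011.

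Hsd11b1 lies on chromosome 1 from 193221634 to 193264075 on the minus strand (GENCODE vM21, GRCm38) and encodes the reductase that regenerates active corticosterone. It had normalised counts of 193, 146 and 224 in labelled Erk1/2 KO 1 to 3, against 27, 20 and 20 in wild type 1 to 3. The lowest labelled KO library was 5.41 times the highest wild type library. On average it had 188 ± 39.3 in labelled KO libraries and 22.3 ± 4.04 in wild type libraries (SD, n = 3 each). The log2 fold change was 3.01 ± 0.24 (SE) on the log2(normalised count + 1) scale. That is 8.04-fold, with a 95% interval of 5.44 to 11.9 and a limma adjusted p of 0.00527. By p-value it ranked 10 among all genes tested. The wild type level rested on an estimated 18 to 32 reads per library, so counting error alone is sizeable there. Hsd11b1 was also called in all 18 alternative fits, with log2 fold changes between 2.81 and 3.18. Its gene span lies within that of Lamb3, a laminin chain gene on the opposite strand, and the annotated exons of the 2 genes share no base. Lamb3 had 722, 953 and 2202 normalised counts in labelled Erk1/2 KO 1 to 3, against 424, 235 and 94 in wild type 1 to 3, and missed the threshold (limma adjusted p = 0.0541). The strand setting of the counting is not stated in the sources used here, and the part of Lamb3 reads in the Hsd11b1 values was not tested.

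Hsd11b2, on chromosome 8 from 105518755 to 105523988 on the plus strand, encodes the dehydrogenase that inactivates corticosterone and so keeps it from the mineralocorticoid receptor. It had 228, 194 and 186 normalised counts in labelled Erk1/2 KO 1 to 3, against 87, 58 and 64 in wild type 1 to 3. Here too all 3 labelled KO libraries lay above all wild type libraries, with a smaller gap. It averaged 203 ± 22.3 in labelled KO libraries and 69.7 ± 15.3 in wild type libraries (SD, n = 3 each). The log2 difference was 1.54 ± 0.21 (SE), or 2.91-fold with a 95% interval of 2.08 to 4.08 (limma adjusted p = 0.0139). The call was lost without labelled Erk1/2 KO 3 (adjusted p = 0.0696) and without wild type 2 (0.09), with log2 fold changes of 1.60 and 1.42. Per kilobase of exon, the ratio of the reductase Hsd11b1 to the dehydrogenase Hsd11b2 was between 0.326 and 0.521 in the libraries labelled Erk1/2 KO and between 0.134 and 0.149 in wild type libraries. On that scale the reductase was below the dehydrogenase in all 6 libraries, and closer to it under the knockout label. The order depends on the lengths used, the union of annotated exons, with 4251 bases for Hsd11b1 and 1840 for Hsd11b2. Without division by length, Hsd11b1 was above Hsd11b2 in labelled Erk1/2 KO 3 (224 against 186).

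**Figure D2:**
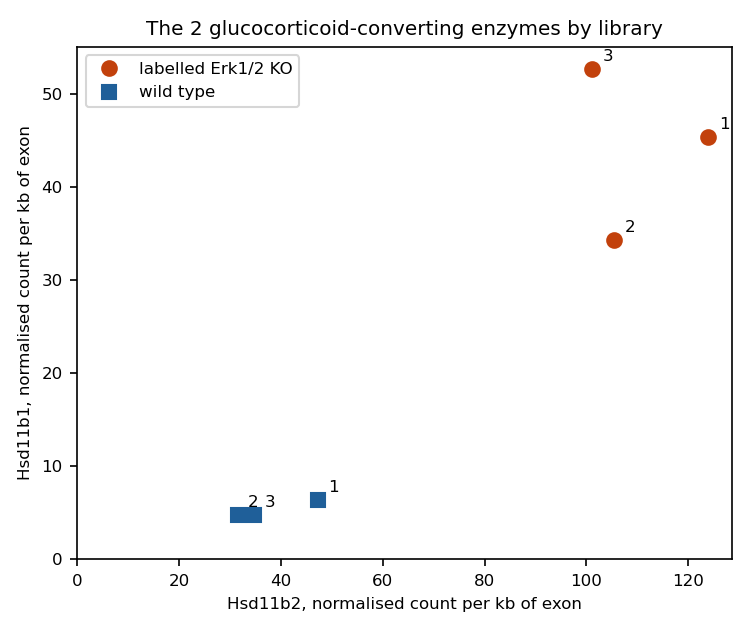
Hsd11b1 (vertical) against Hsd11b2 (horizontal), both in normalised counts per kilobase of exon, with 1 point per library and replicate numbers beside the points. The 3 libraries labelled Erk1/2 KO lie above the wild type libraries on both axes, and wild type 2 and 3 have the same Hsd11b1 value of 4.70.

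Of the epithelial markers, 2 of 8 rose beside these enzymes. Hsd11b2 is known from sodium-transporting epithelium, and the summed normalised counts of 8 epithelial markers were between 141957 and 156970 in the libraries labelled Erk1/2 KO and between 78040 and 97790 in wild type libraries. The 2 that rose were the keratin genes Krt8 and Krt19, and the other 6 did not pass, among them Epcam (limma adjusted p = 0.218). Hsd11b1 is known from connective tissue and macrophages, among other cells. The sum over 6 fibroblast markers was between 30679 and 48300 in labelled KO libraries and between 42652 and 60259 in wild type libraries, with none of the 6 called by limma (1 at an unadjusted p under 0.05). For 6 macrophage markers it was between 3657 and 8666 in labelled KO libraries and between 5000 and 7324 in wild type, with 1 called lower, Adgre1. In whole tissue, more cells of a type and more RNA per cell cannot be told apart, and the part of these markers in the enzyme values was not tested.

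H6pd, which supplies the reductase Hsd11b1 with its cofactor inside the endoplasmic reticulum, averaged 2388 normalised counts in the libraries labelled Erk1/2 KO and 3433 in wild type libraries, and its log2 difference of -0.54 ± 0.26 did not pass (limma adjusted p = 0.214). It belongs to a list of 18 genes of steroid synthesis and conversion, of which 11 were tested, 2 rose and none fell, with a median log2 fold change of -0.04. Por, the reductase that passes electrons to microsomal cytochromes P450, averaged 9423 normalised counts in labelled KO libraries and 3675 in wild type, and rose by 1.33 ± 0.23 on the log2 scale (adjusted p = 0.0245). Fdx1, the ferredoxin that does so for mitochondrial ones, had 0.63 ± 0.15 (adjusted p = 0.049). Both also serve many reactions outside steroid synthesis. Hsd3b3 and Srd5a3, the other abundant members, did not pass (-0.04 ± 0.32 and 0.33 ± 0.22).

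Among the 7 members of this list with values too low to be tested were Cyp11b1, which completes corticosterone synthesis, and Cyp21a1, which acts before it. Both are named here because of their values. Cyp11b1 was at 7, 24 and 20 normalised counts in labelled Erk1/2 KO 1 to 3, against 1, 1 and 2 in wild type 1 to 3. Cyp21a1 was at 36, 7 and 31 in the labelled KO libraries and at 1, 3 and 3 in wild type libraries, and has a near-identical pseudogene with which reads could be shared. With the estimated reads of each genotype added up, 51 in labelled KO and 4 in wild type for Cyp11b1, the ratio was 14.0 with an exact 95% counting interval of 5.15 to 53.3. For Cyp21a1, with 68 reads in labelled KO and 7 in wild type, it was 10.7, with an interval of 4.91 to 27.5. These intervals cover counting error only and leave out the spread among libraries. Because the 2 genes were picked by these values, the intervals are no test of them. Fitted without the filter on low values, Cyp11b1 had a limma adjusted p of 0.0321 and Cyp21a1 of 0.0603. Cyp11a1, the first enzyme of the pathway, was at 21, 2 and 4 in the labelled KO libraries and at 12, 7 and 35 in wild type, so the genotypes overlapped. The 6 adrenal cortex markers, which include these 3 enzymes, summed to between 85 and 161 in labelled KO libraries and to between 63 and 80 in wild type libraries, and neither of the 2 tested was called. Nr5a1 and Mc2r, a factor and a receptor that define the gland, were at 4 or below in all libraries, and the part of adrenal tissue in these values was not tested.

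The receptors themselves showed small differences, none of which passed. Nr3c1, on chromosome 18 from 39410545 to 39519421, had 779, 1214 and 1167 normalised counts in labelled Erk1/2 KO 1 to 3, against 1165, 1167 and 1063 in wild type 1 to 3. Only labelled Erk1/2 KO 1 was below the wild type range. The log2 fold change was -0.13 ± 0.20, with a 95% interval of -0.59 to 0.33 (limma adjusted p = 0.684), and it turned to 0.074 without that library. A 2-fold difference lies outside that interval in either direction.

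Thra, on chromosome 11 from 98740638 to 98769006, had 2002, 1638 and 2203 normalised counts in labelled Erk1/2 KO 1 to 3, against 2473, 2421 and 2488 in wild type 1 to 3. All labelled KO libraries lay below all wild type libraries, and the highest of them was within 1.10-fold of the lowest wild type value. The log2 fold change of -0.35 ± 0.15 did not pass (limma adjusted p = 0.171). Thra makes both a hormone-binding receptor and a splice form that does not bind hormone, and the values do not separate them. Its exons share 263 bases with those of Nr1d1, a clock repressor gene on the opposite strand that had between 202 and 578 normalised counts in labelled KO libraries and between 118 and 326 in wild type. Thrb, on chromosome 14 from 17660261 to 18038090, had 177, 340 and 210 normalised counts in labelled Erk1/2 KO 1 to 3, against 296, 346 and 299 in wild type 1 to 3, with overlapping genotypes and a log2 fold change of -0.42 ± 0.25 (adjusted p = 0.296). Per kilobase of exon, Thra exceeded Thrb by between 7.73 and 18.1 times in labelled KO libraries and by between 11.2 and 13.4 times in wild type libraries.

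The 5 target genes did not move in 1 direction. Tsc22d3 fell and no other target passed, and the fold changes of the remaining 4 ran from -1.97 to 1.04. Tsc22d3, on chromosome X from 140539528 to 140600659, encodes GILZ, a leucine zipper protein that glucocorticoids induce and that dampens inflammatory transcription. It had 1027, 811 and 477 normalised counts in labelled Erk1/2 KO 1 to 3, against 1714, 1597 and 1658 in wild type 1 to 3. The wild type libraries agreed within 1.07-fold, and the labelled KO libraries lay below them and spread over 2.15-fold. It averaged 772 ± 277 in labelled KO libraries and 1656 ± 58.5 in wild type libraries (SD, n = 3 each), and the log2 difference was -1.17 ± 0.27 (limma adjusted p = 0.0465). That p is close to the threshold: the call was lost in 5 of the 6 fits that left out a library, and remained only without labelled Erk1/2 KO 1 (adjusted p = 0.0128). Over those 6 fits the log2 difference stayed between -1.41 and -0.86. The call was also lost with sex as a term, where the log2 difference was -1.05 (adjusted p = 0.0828), and held without both libraries that stood apart in gut segment genes (0.00810). Tsc22d3 is X-linked. Labelled Erk1/2 KO 2 and 3, which had Xist, lay below labelled Erk1/2 KO 1, which had almost none, while wild type 3, the only wild type library with Xist, lay between the other 2.

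Tsc22d3 is abundant in lymphocytes, and B cell markers were lower under the knockout label as well. The sum over 6 B cell markers was 117, 133 and 172 normalised counts in labelled Erk1/2 KO 1 to 3. In wild type 1 to 3 it was 378, 527 and 531. Within each genotype the order differed from that of Tsc22d3. Each order rests on 3 libraries, and wild type Tsc22d3 spread over only 1.07-fold, so little can be read from it. Labelled Erk1/2 KO 3 had the highest sum and the lowest Tsc22d3 (477) of its group. Wild type 1 had the lowest sum and the highest Tsc22d3 (1714) of its group. Of the 5 markers tested, 4 fell, among them Cd79a, Ms4a1 and Cd22, which were chosen after their values were seen. Ms4a1 passed the filter only through the wild type libraries. Pax5, which defines the lineage, was at 0 in all labelled KO libraries and between 4 and 9 in wild type. The sum over the T cell and innate lymphoid markers was between 1412 and 2321 in labelled KO libraries and between 2344 and 2838 in wild type, with none of the 7 tested called by limma (1 at an unadjusted p under 0.05). Cd3e, which defines T cells, was at 34, 14 and 23 in labelled KO libraries and at 19, 18 and 18 in wild type. Endothelial markers were lower too, with 3 of 6 called (Pecam1, Cdh5 and Kdr) and sums between 2532 and 2863 in labelled KO libraries and between 4126 and 4993 in wild type. The part of either cell type in the Tsc22d3 values was not tested.

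Fkbp5, on chromosome 17 from 28399094 to 28517527, encodes a co-chaperone that glucocorticoids induce and that in turn lowers hormone binding by their receptor. It had 555, 1093 and 1662 normalised counts in labelled Erk1/2 KO 1 to 3, against 521, 665 and 335 in wild type 1 to 3. Labelled Erk1/2 KO 2 and 3 were above every wild type library, and labelled Erk1/2 KO 1 was within the wild type range. The log2 fold change of 1.04 ± 0.43 did not pass (limma adjusted p = 0.156). It was 1.46 without labelled Erk1/2 KO 1 (adjusted p = 0.0263) and 1.19 without both libraries that stood apart in gut segment genes (0.0108). Labelled Erk1/2 KO 3 thus held both the highest Fkbp5 and the lowest Tsc22d3 of the 6 libraries.

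Sgk1, on chromosome 10 from 21882184 to 21999903, is the kinase gene with the full glucocorticoid element before a start, and its product raises epithelial sodium uptake. It had 5011, 3559 and 849 normalised counts in labelled Erk1/2 KO 1 to 3, against 3213, 3506 and 2190 in wild type 1 to 3. Labelled Erk1/2 KO libraries therefore held both the highest and the lowest value, 5.90-fold apart. The log2 fold change was -0.23 ± 0.62 (limma adjusted p = 0.822), with a 95% interval of -1.71 to 1.24 that leaves room for a change in either direction, and it was 0.54 without labelled Erk1/2 KO 3.

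Zbtb16, on chromosome 9 from 48654297 to 48836222, encodes PLZF, a repressor that glucocorticoids induce and that also directs innate-like lymphocytes. It had 11, 206 and 48 normalised counts in labelled Erk1/2 KO 1 to 3, against 139, 333 and 154 in wild type 1 to 3. The genotypes overlapped through labelled Erk1/2 KO 2, and the labelled KO libraries differed among themselves by 18.7-fold. The log2 fold change of -1.97 ± 0.96 did not pass (limma adjusted p = 0.214). It was -0.94 without labelled Erk1/2 KO 1 and -3.00 without labelled Erk1/2 KO 2 (adjusted p = 0.326 and 0.0610). Klf9, on chromosome 19 from 23141226 to 23168134, encodes a zinc finger factor that both hormones induce in many tissues. It had 302, 770 and 304 normalised counts in labelled Erk1/2 KO 1 to 3, against 965, 982 and 677 in wild type 1 to 3, where labelled Erk1/2 KO 2 exceeded wild type 3. Its log2 fold change was -1.06 ± 0.38 (adjusted p = 0.119), and it was -1.51 without labelled Erk1/2 KO 2 (adjusted p = 0.0366).

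**Figure D3:**
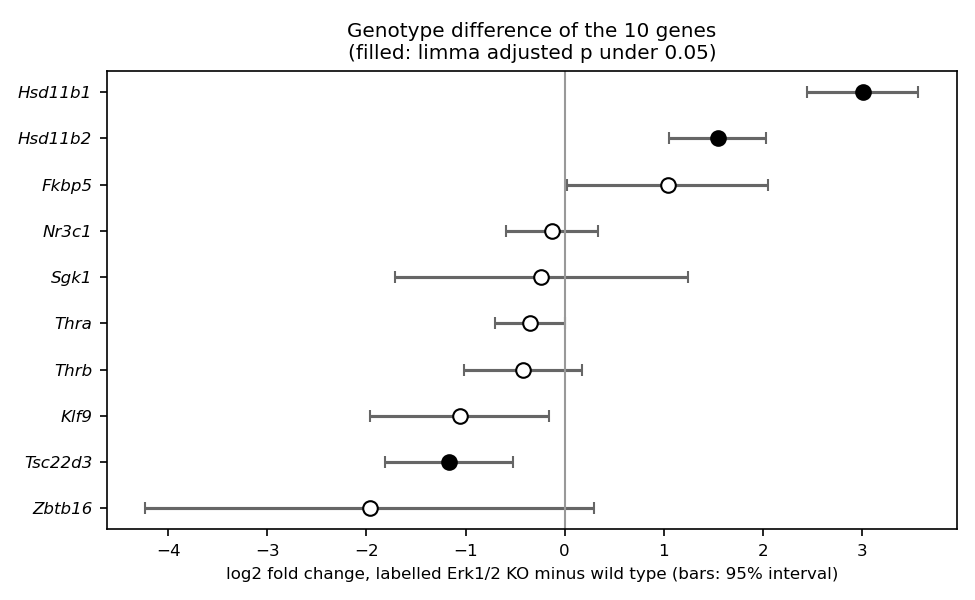
Log2 fold changes of the 10 genes, libraries labelled Erk1/2 KO minus wild type libraries (horizontal axis), with 95% intervals from the limma fit and filled points for an adjusted p under 0.05. Hsd11b1 at 3.01, Hsd11b2 at 1.54 and Tsc22d3 at -1.17 are filled, and the interval of Zbtb16 is the widest.

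**Figure D4:**
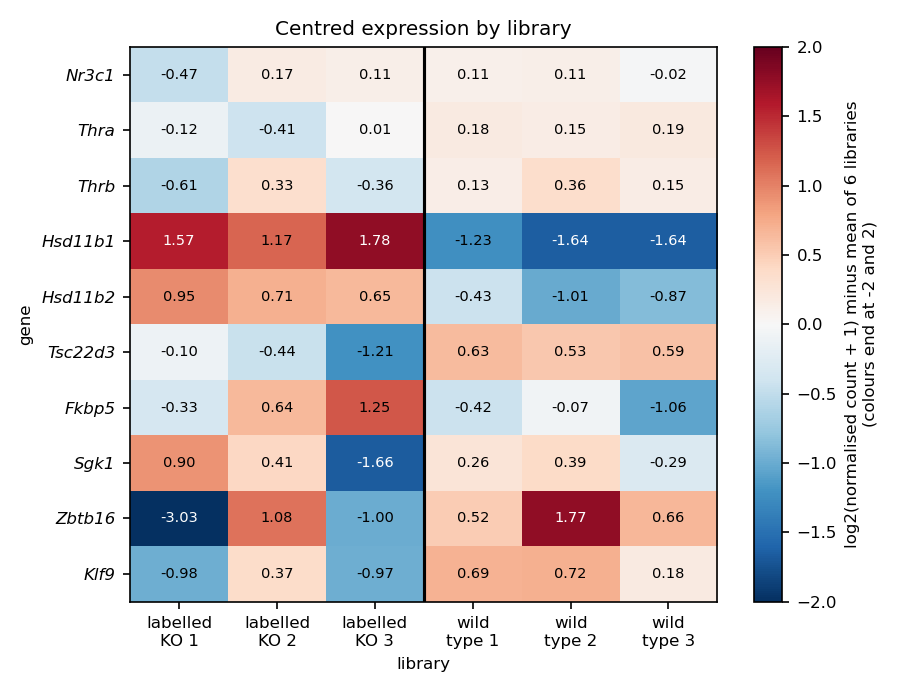
Expression of each gene (rows) in each library (columns) as log2(normalised count + 1) minus the mean over the 6 libraries, with the value printed in each cell and colours ending at -2 and 2. Within the labelled Erk1/2 KO libraries, replicate 3 combines the highest Fkbp5 (1.25) with the lowest Sgk1 (-1.66), and replicate 1 has the lowest Zbtb16 (-3.03).

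Levels of different genes were compared per kilobase of exon, over the union of all annotated exons. In libraries labelled Erk1/2 KO the order was Sgk1 (640 ± 431), Thra (422 ± 62.1), Tsc22d3 (178 ± 63.8), Nr3c1 (137 ± 31.1), Fkbp5 (117 ± 58.5), Hsd11b2 (110 ± 12.1), Klf9 (95.3 ± 56.0), Hsd11b1 (44.1 ± 9.24), Thrb (32.7 ± 11.6) and Zbtb16 (16.7 ± 19.6 normalised counts per kilobase, mean ± SD, n = 3). Neighbours in this order had separate ranges only between Thra and Tsc22d3 and between Klf9 and Hsd11b1. In wild type libraries the order was Sgk1 (606 ± 141), Thra (533 ± 7.62), Tsc22d3 (382 ± 13.5), Klf9 (182 ± 35.6), Nr3c1 (147 ± 7.74), Fkbp5 (53.5 ± 17.5), Thrb (42.4 ± 3.79), Zbtb16 (39.5 ± 20.4), Hsd11b2 (37.9 ± 8.32) and Hsd11b1 (5.25 ± 0.951). There the ranges overlapped between Sgk1 and Thra, between Klf9 and Nr3c1, and among Fkbp5, Thrb, Zbtb16 and Hsd11b2 from each to the next. Hsd11b1 stood last in wild type libraries, apart from its neighbour.

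Other glucocorticoid targets were called in both directions. Of 22 listed, all tested, 2 rose and 3 fell, 11 had positive and 11 negative fold changes, and the median log2 fold change was 0.06, beside -0.01 over all genes tested. Tat, encoding the tyrosine aminotransferase that glucocorticoids induce in liver, rose: it had 68, 59 and 36 normalised counts in labelled Erk1/2 KO 1 to 3, against 2, 1 and 3 in wild type 1 to 3 (limma adjusted p = 0.00739). Tat passed the filter on low values only through the labelled KO libraries, where it is high, so its place in the count rests partly on the change itself; fitted without the filter, its adjusted p was 0.00895. With 156 estimated reads in labelled KO and 6 in wild type, the ratio was 28.6, with an exact 95% counting interval of 12.8 to 79.0. That interval also leaves out the spread among libraries and is no test of the gene. Lcn2, an iron-sequestering defence protein that inflammation also induces, rose by 2.57 ± 0.53 (adjusted p = 0.0353). Among those that fell, Hif3a, a hypoxia-inducible factor subunit, averaged 625 normalised counts in labelled KO libraries and 2083 in wild type, a log2 fold change of -1.79 ± 0.28 (adjusted p = 0.02). Klf15, a Krüppel-like factor of amino acid metabolism, changed by -1.70 ± 0.29 (adjusted p = 0.0238), from few reads. The fifth gene called, Bcl6, a transcriptional repressor that acts in B cell follicles, had -1.02 ± 0.21 (adjusted p = 0.0354) and is named to complete the count. The abundant metallothionein genes Mt1 and Mt2 did not pass (-0.16 ± 0.57 and -1.18 ± 0.76), nor did the sodium-proton exchanger gene Slc9a3 (-0.05 ± 0.73). Mt2 was at 550 in labelled Erk1/2 KO 3, the library with the lowest Sgk1 and Tsc22d3, and between 2236 and 5940 in the other 5.

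Of 15 chaperones and coregulators of the receptors, all tested, 1 rose and none fell, with a median of -0.06. Over all genes tested 4.85% were called higher, so 1 of 15 is near the background share. The gene that rose was Bag1, a co-chaperone of HSP70 that also restrains the glucocorticoid receptor, which had a log2 difference of 0.70 ± 0.15 (limma adjusted p = 0.0391). Hspa8, Hsp90ab1 and Ncor1, the most abundant of the rest, had -0.22 ± 0.20, 0.24 ± 0.18 and -0.26 ± 0.36. In the list of the mineralocorticoid receptor and sodium transport, none of 7 tested of 9 listed was called by limma (0 of 7, also at an unadjusted p under 0.05, with a median of 0.05). The sodium pump subunit gene Atp1b1 had 0.42 ± 0.33, and the epithelial sodium channel genes Scnn1b and Scnn1g were too low to be tested.

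On the thyroid side, 11 of 14 genes for hormone transport, deiodination and receptor partners were tested, of which none rose and 1 fell, with a median of -0.50. Slc7a8, an amino acid exchanger that also carries thyroid hormone, fell to a mean of 1717 normalised counts in libraries labelled Erk1/2 KO, against 2994 in wild type libraries (log2 fold change -0.82 ± 0.16, limma adjusted p = 0.0343). Slc16a10, another carrier of thyroid hormone, did not pass at -0.66 ± 0.20 (adjusted p = 0.0829). Dio1, which removes iodine from thyroid hormone, had 1769, 755 and 377 normalised counts in labelled Erk1/2 KO 1 to 3, against 1605, 1772 and 1661 in wild type 1 to 3. Labelled Erk1/2 KO 1 was at the wild type level and the other labelled KO libraries were below it (-1.08 ± 0.50, adjusted p = 0.198). Rxra, a retinoid X receptor gene, had 0.08 ± 0.15.

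The 15 listed thyroid hormone targets had 14 tested, 2 higher and none lower, with a median of 0.67. Among those that rose was Bcl3, a regulator of NF-kappaB that inflammatory signals also control. It averaged 1596 normalised counts in libraries labelled Erk1/2 KO and 949 in wild type libraries (log2 fold change 0.76 ± 0.17, limma adjusted p = 0.0402). Alpi, the intestinal alkaline phosphatase gene that thyroid hormone induces, did not pass (0.59 ± 0.27), nor did Ucp2 (0.94 ± 0.37) and Cpt1a (-0.05 ± 0.22), which act in mitochondria.

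**Figure D5:**
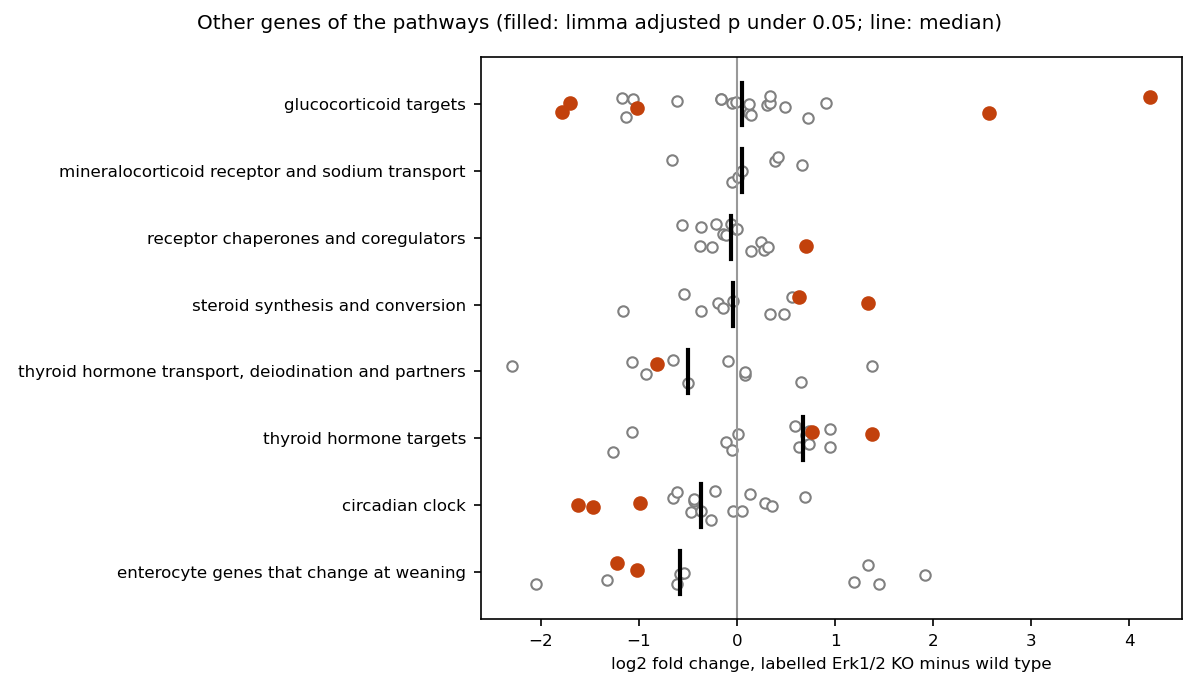
Log2 fold changes, libraries labelled Erk1/2 KO minus wild type libraries (horizontal axis), of the tested genes in the 8 lists of related genes (rows, members of the main set left out), with filled points for a limma adjusted p under 0.05 and a black line at each median. The medians run from -0.58 for enterocyte genes that change at weaning to 0.67 for thyroid hormone targets. The weaning list mixes genes that rise with genes that fall at weaning.

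Clock genes were listed because glucocorticoids and the clock drive each other, with Klf9 and Per1 among the shared targets. All 17 were tested, none rose and 3 fell, with a median of -0.36. Per2, a period gene that glucocorticoids induce, had 858, 950 and 862 normalised counts in labelled Erk1/2 KO 1 to 3, against 1693, 1725 and 1876 in wild type 1 to 3. The libraries of each genotype lay close together, and the log2 fold change was -0.99 ± 0.12 (limma adjusted p = 0.0128). Hlf and Bhlhe41 fell from low levels, with log2 differences of -1.47 and -1.62. Bhlhe41 passed the filter on low values only through the wild type libraries, where it is high, so its place among the 3 rests partly on the change itself. Per1 (-0.61 ± 0.57), Bhlhe40 (0.36 ± 0.16) and Tef (-0.47 ± 0.18) did not pass. The time of day at which tissue was taken is not stated in the sources used here, and its part in these values was not tested.

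Enterocyte genes that change at weaning, the end point that the hormones time, had 11 of 12 tested, none higher and 2 lower. The 2 lower were Lct, encoding lactase, and Prdm1, a repressor of the adult enterocyte program. Their log2 fold changes were -1.22 ± 0.28 and -1.02 ± 0.21 (limma adjusted p = 0.0446 and 0.0372). The list mixes genes that rise with genes that fall at weaning, so its median of -0.58 gives no direction for the class. Log2 fold changes were positive for 4 genes, Sis, Treh, Arg1 and Arg2, from 1.19 to 1.92. They were negative for 7, Lct, Prdm1, Fcgrt, Amn, Glb1, Cubn and Lamp2, from -0.54 to -2.05. Arg1, Arg2, Cubn and Lamp2 did not pass and are named to complete the count. The abundant genes Fcgrt and Amn act in milk protein uptake, and Glb1 encodes a lysosomal galactosidase. They had -1.32 ± 0.57, -0.61 ± 0.86 and -0.58 ± 0.90 in that order and did not pass. Amn and Glb1 were high in labelled Erk1/2 KO 1 (13413 and 7556) and in wild type 3 (14137 and 7208), the libraries that stood apart in gut segment genes, and at 4041 or below in the other 4. The enzymes Sis and Treh, which rise at weaning and respond to glucocorticoids in pups, did not pass at 1.19 ± 0.66 and 1.45 ± 0.71 and are named beyond the rule because of that role.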

How the data were processed

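Per the labels' protocols, small intestine was frozen, RNA was taken up in Trizol, and TruSeq libraries were sequenced. DESeq2 (no version), HTSeq 0.6.0, TopHat2 2.1.0 and mm10 are listed in the submitters' processing notes, and neither annotation nor strand setting was found there. For each gene symbol the authors deposited a score, a normalised count in whole numbers. Regular gaps and doubled steps among its low values are those of counts scaled by library and then rounded. Reads per library were estimated from those steps. Of the symbols, 27 had been turned into dates.

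The fit by limma 3.58.1 (R 4.3.3) took log2(normalised count + 1) of the 14686 genes that reached 10 in 3 or more libraries, with a trended prior variance, genotype as the only term, 4 residual and 2.99 prior degrees of freedom, two-sided tests and Benjamini-Hochberg adjustment at 0.05 over all genes. Fold changes on this scale understate the change of low genes. Gene lengths and positions came from GENCODE vM21 (GRCm38, the assembly of mm10). The code was tested on simulated data. The members, lists and tests were chosen with earlier results of these data known. Named genes were the 10 members, up to 4 called genes per list by p-value and up to 3 abundant uncalled ones; others are marked, and some genes that the rule picked are not reported here. Alternatives changed pseudocount, filter, scaling, prior, replicate block and the libraries used, and sex as a term was added after seeing the data.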

Additional observations from a re-analysis of the deposited data

How the results depend on the processing

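Of the 18 alternative fits, all called Hsd11b1, 15 called Hsd11b2 and 9 called Tsc22d3, and none changed the sign of these 3. In fits leaving out 1 library, the number of members called ran from 1 to 4 and that of all genes from 28 to 2998, compared with 1291 in all. Over the same fits the log2 fold change of Nr3c1 ran from -0.25 to 0.074 and that of Sgk1 from -0.74 to 0.54. Without labelled Erk1/2 KO 1 and wild type 3 together, 3762 genes were called and Nr3c1 was at 0.030. With sex as a term, 459 genes were called and Sgk1 was at 0.12. Same-numbered libraries deviated from their group means with correlations of -0.37, 0.30 and -0.16. The highest correlation, 0.41, was between labelled Erk1/2 KO 1 and wild type 3, the libraries that stood apart in gut segment genes. With such differences in the values, the correlations cannot show whether same-numbered libraries shared a litter or a preparation. With the replicate block 64 genes and 1 member, Hsd11b1, were called, and the adjusted p of Hsd11b2 was 0.0547. Tsc22d3 was also uncalled without the filter and without the trend (adjusted p = 0.0576 and 0.0583). Scaling by library totals moved the median of all genes to -0.19 and the share of calls that were higher to 29.6%, compared with 55.2%; it was 44.5% with upper-quartile scaling, and the 3 members stayed called in both. The cause of these shifts was not tested. Depth limits Hsd11b1 in wild type and Zbtb16, with an estimated 9 reads in labelled Erk1/2 KO 1.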
